A study of Mus musculus with 4 samples.

Results

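Brain endothelial cells of Ucp2-knockout embryos were compared between embryonic days 15 (E15) and 18 (E18), with 1 RNA sequencing library at each stage. Both knockout libraries came from embryos of genotype UCP2f/f;Tie2-cre on the C57BL/6 strain. In such embryos a floxed Ucp2 gene meets Cre recombinase made under the Tie2 promoter, which drives expression in endothelium and also in much of the blood lineage, so the deletion is not restricted to the brain or to its vessels. The wild-type libraries (WT, C57BL/6, 1 at E15 and 1 at E18) are set beside the knockout libraries as a description. The labels do not say how many embryos went into a library or how the cells were taken from the brain, and the controls are named WT without mention of a floxed allele or of Cre. The knockout libraries carried 12048 genes that could be compared, of 16181 listed at both stages and 20194 listed at either. A gene was kept with at least 1 CPM (the reads of a gene scaled to a common library total of 1000000 reads) in 1 knockout library and at least 50 reads over both. Genes on chromosomes X and Y (548) were left out and 3585 others were below the filter. At its edge lay 36 kept genes with 50 reads and 39 genes with 49 reads that were left out.

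The library totals were 16328300 reads at E15 and 21992660 at E18 for the knockout, and 15542930 and 19075407 for the wild type. A ratio is given as log2 of the CPM plus 1 at E18 over the CPM plus 1 at E15, so a positive value means a higher level at E18. Where a gene is given with a pair of read counts, the first is from E15 and the other from E18, in the knockout unless the wild type is named. A gene was called higher or lower where the ratio reached 2-fold. With 1 library a side there is no test and no p-value, the ratio compares 2 libraries and not 2 stages, and stage cannot be told apart from anything else that differed between the libraries. The intervals given are exact Clopper-Pearson 95% intervals of the log2 ratio of scaled counts without the added 1 CPM, so for weakly read genes they can lie outside the ratio itself, and they cover counting error only. The half-width of the interval had a median of 0.879 log2 units for genes with 50 to 60 reads and 0.0833 for genes with 4000 to 6000 reads.

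Brain endothelium forms the blood-brain barrier. Its cells seal their borders with tight junctions, carry glucose, amino acids, lactate and hormones across by dedicated transporters, and suppress the vesicle traffic and fenestrations of other capillaries, under the influence of Wnt ligands from the neural tissue and of pericytes on the vessel wall. UCP2, the product of Ucp2, sits in the inner membrane of mitochondria, exports metabolites and is linked to the control of reactive oxygen species. Between E15 and E18 the vessels of the mouse brain still sprout and divide while barrier genes mature, and the cortex around them turns from producing neurons towards producing astrocytes.

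Ucp2 itself (ENSMUSG00000033685, chromosome 7, 100493337 to 100502020, plus strand, positions read as GRCm38) was read at a similar level in both knockout libraries. It had 2666 and 3296 reads at E15 and E18 (163 and 149.9 CPM), for a log2 ratio of -0.12 (interval -0.20 to -0.05). The wild-type libraries held 4285 and 6696 reads (276 and 351 CPM). Transcripts were therefore still counted in both knockout libraries, at a lower CPM than in the wild-type library of the same stage, and the sources used here do not say whether the counted exons include the deleted part. The markers of the labelled cell type were present at both stages. Cldn5, the main claudin of the barrier, had 123819 and 177338 reads (log2 0.09) and the summed CPM of 30 endothelial identity genes was 31997 at E15 and 32846 at E18. Xist, the X-linked RNA made in female cells, had 2109 and 547 reads in the knockout and 2549 and 0 in the wild-type libraries, and the sex of the embryos is not in the labels.

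Of the 12048 genes, 524 were higher at E18 at 2-fold (4.35%) and 1329 were lower (11.0%). Past 4-fold the counts were 58 higher and 335 lower. The median log2 ratio of all genes was -0.10, and scaling by trimmed mean of M values (TMM) moved it by 0.11 to 0.01, with 653 genes higher and 1141 lower. With a pseudocount of 5 CPM in place of 1 the counts were 173 higher and 584 lower, and many of the weakly read genes called below lose their call. Lists of genes below are therefore read against a median of -0.10 and against shares called of 4.35% and 11.0%. Calls were denser among weakly read genes. Among 1864 genes that reached 1 to 5 CPM, 16.8% were lower and 7.89% higher, and among 4209 genes that reached 50 CPM 4.99% were lower and 2.19% higher. A gene below 1 CPM in a knockout library passed the filter through the other alone, and could be called only in the direction of that other library. Among the genes below, Nlrc5, Pacsin3 and Dll3 passed through the E18 library alone. Iigp1, Nr4a3, Slc25a32 and Dusp5 passed through the E15 library alone, and the same holds for others. The minimum of reads over both libraries could also bar a call in 1 direction, as for Aldh1l1 and Mmp8 below.

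The lowest ratios belonged largely to non-coding and intron-derived transcripts. C130089K02Rik (ENSMUSG00000104339, chromosome 3, 52057285 to 52064244, minus strand) is an unspliced transcript in an intron of Maml3, which encodes a Notch co-activator, and it had 787 and 1 reads in the knockout libraries against 645 and 238 in the wild-type libraries. Gm42449, in an intron of the Wnt effector gene Lef1, had 341 and 0 reads and was at least 153-fold lower at E18 when the count of 0 is set to a floor of 3 reads. Gm37954 lies in an intron of Srgap2 and had 414 and 10 reads, and Gm37297, in an intron of Agap1, had 409 and 11. Gm43696, in an intron of Lrig2, had 258 and 0 reads in the knockout and 223 and 202 in the wild type, so it was at least 116-fold lower in the first pair while its wild-type log2 ratio was -0.41. All 5 were at 0.50 CPM or less in the knockout E18 library and at 3.09 CPM or more in the other 3 libraries.

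Other long non-coding RNAs stood beside them. Kcnq1ot1 (ENSMUSG00000101609, chromosome 7, 143212155 to 143296549, minus strand), the imprinted antisense RNA that silences its own chromosomal domain, had 1049 and 66 reads (64.2 and 3.00 CPM) and a log2 ratio of -4.03 (interval -4.80 to -4.06), against -1.87 in the wild type. Malat1, the abundant RNA of nuclear speckles, had 1823 and 232 reads (log2 -3.29, interval -3.61 to -3.21), against -1.52 in the wild type. Gdap10, a long intergenic RNA inside an intron of Nampt, had 2368 and 268 reads (log2 -3.47). The processed transcript 1110038B12Rik had 656 and 34 reads, 4632427E13Rik 653 and 34 and Gm45836 774 and 62. The knockout E18 library was the lowest of the 4 for each of these 6 RNAs.

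By annotated kind, 150 measured genes carried the label TEC, which marks transcript models that still await an experimental check. Of these 109 were lower, 0 were higher and the median log2 ratio was -1.73. For 100 of them the whole gene lay within introns of a protein-coding gene on the same strand, without touching its exons, and 84 of those were lower (median -2.05). The 84 host genes had a median of -0.25, 8 were lower and 0 higher, and in 91 of 100 cases the intronic transcript had the lower ratio. Many of the lower intronic transcripts, such as Gm42449 (341 and 0 reads) and Gm38111 (122 and 0), passed the filter through the knockout E15 library alone. They could not have been called higher, so the counts, the median and the comparison with host genes depend in part on the filter. Of 17 sense-intronic RNAs 11 were lower and 2 higher (median -1.80), and of 101 antisense RNAs 38 were lower and 9 higher (median -0.48). Long intergenic RNAs were called in both directions, 42 lower (24.1%) and 18 higher (10.3%) of 174, with a median of -0.15. Among 11146 protein-coding genes 1055 were lower (9.47%) and 481 higher. In the wild-type libraries 39 of 80 measured intronic TEC genes were lower at E18 (median -0.96) against 6.85% of the 11593 genes measured in both genotypes. The share of unspliced or nuclear RNA in a library was not measured, and its part in these ratios was not tested. The sources used here do not say whether counting used strand, so reads of an antisense RNA such as Kcnq1ot1 and of the gene across from it may not be told apart.

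**Figure D1:**
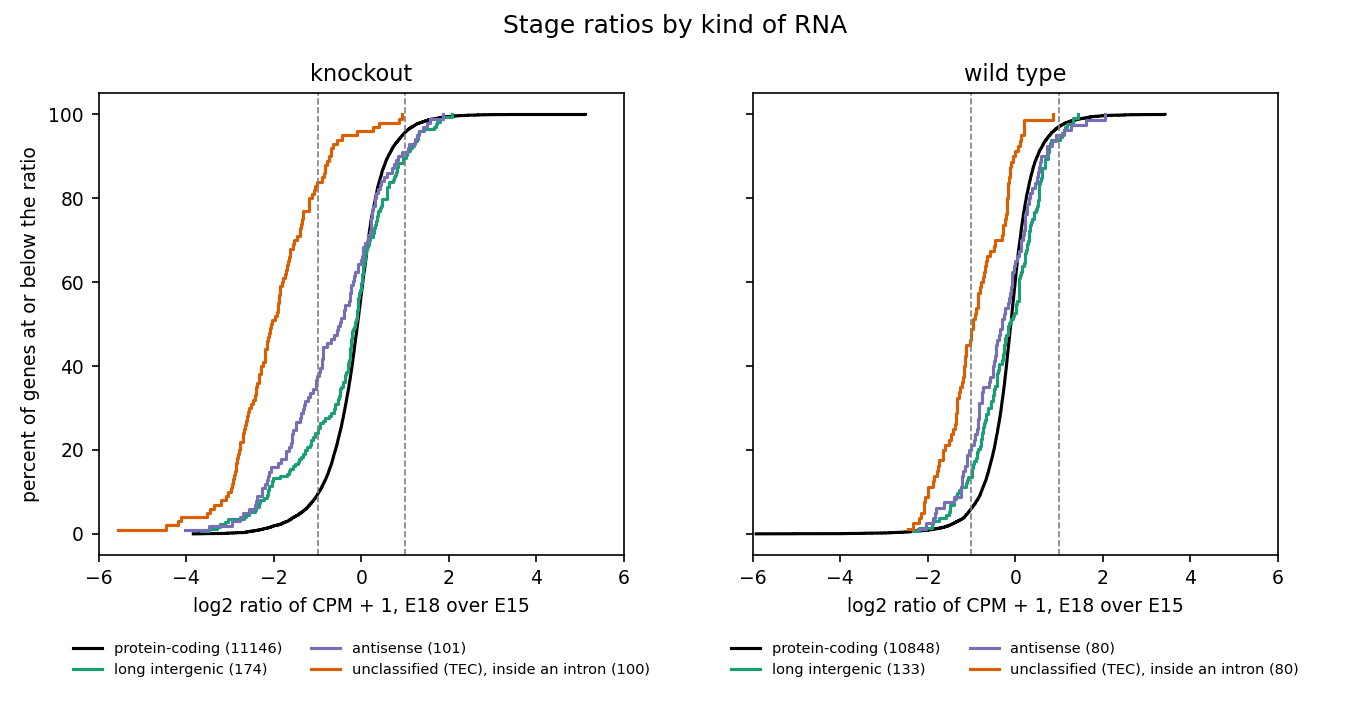
Share of genes (percent, vertical axis) at or below each stage ratio (log2 of CPM plus 1, E18 over E15, horizontal axis) for 4 kinds of RNA, in the knockout libraries (left) and the wild-type libraries (right), with the number of genes in brackets and dashed lines at 2-fold. The curve of intronic TEC transcripts lies to the left of protein-coding genes in both panels, with medians of -2.05 and -0.96. Many of these transcripts passed the filter through the knockout E15 library alone.

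Gene length and base composition differed a little between the called sets. The median total exon length of protein-coding genes was 4389 bases for higher, 5308 for lower and 4655 for all measured genes, and the median GC content 51.9%, 49.2% and 49.7%. Among the tenth of genes with the longest exon sets 12.7% were lower and the median log2 ratio was -0.28.

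A second set of low ratios came from protein-coding genes with a high level in the knockout E15 library. Cebpd, a transcription factor of the acute-phase and glucocorticoid responses, had 1308 and 113 reads (log2 -3.72, interval -4.25 to -3.68), and 68 and 71 in the wild-type libraries. Hes1, a repressor induced by Notch, had 9076 and 1453 reads (556 and 66.1 CPM, log2 -3.05), and 1341 and 807 in the wild type. Tbx1, a T-box factor of pharyngeal and vascular development, had 504 and 30 reads (log2 -3.75), and 34 and 11 in the wild type. For these genes the knockout E15 library was high and the other 3 libraries were low.

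The same order of libraries held for several genes of signalling and protein turnover. The stress kinase Plk3 had 1063 and 150 reads in the knockout and 201 and 125 in the wild type. Prkch, a protein kinase C isoform of endothelium, had 2688 and 412 against 747 and 527 in the wild type. Zfand5, a zinc finger protein that promotes proteasomal degradation, had 2936 and 452 against 629 and 382. The ubiquitin shuttle gene Ubqln1 had 3240 and 676 against 615 and 446, and the vesicle gene Rab6b had 212 and 2 against 8 and 7. Their knockout log2 ratios ran from -3.68 for Rab6b to -2.65 for Ubqln1. Each of these 5 genes was highest in the knockout E15 library, and its wild-type log2 ratio lay between -0.98 and -0.15. No second knockout library at E15 was analysed here, so a property of that library and the stage cannot be told apart.

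Heat shock genes stood among the lowest as well. Hspa1a (ENSMUSG00000091971, chromosome 17, 34969190 to 34972156, minus strand), the inducible Hsp70 chaperone, had 17882 and 1985 reads (1095 and 90.3 CPM, log2 -3.59, interval -3.67 to -3.53) and 11692 and 3017 in the wild type. Its neighbour Hspa1b had 321 and 15 reads (log2 -3.62), and the 2 genes are near-identical copies, so the division of reads between them is uncertain. Of 25 heat shock chaperones 2 were lower (these 2) and 1 was higher, with a median of -0.08. The higher one was Cryab, the small chaperone alpha-crystallin B of muscle and glia, with 50 and 420 reads (log2 2.31). The abundant constitutive chaperones Hsp90ab1 and Hspa8 had log2 ratios of -0.24 and -0.20. The promoters of both Hsp70 genes hold the heat shock element searched for, shown here in capitals within 60 bases of the RefSeq promoter window (GRCm38.p6, gene strand, 5′ to 3′), to show that the pair shares it at the same place.
Hspa1a, chr17:34972227-34972286, minus strand: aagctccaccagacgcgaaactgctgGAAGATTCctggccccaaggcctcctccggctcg
Hspa1b, chr17:34959309-34959368, minus strand: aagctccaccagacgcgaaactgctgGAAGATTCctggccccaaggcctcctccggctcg
The element was searched as GAANNTTC on either strand in windows of 300 bases, 250 before and 50 after each start. It was found in 9 of 19 heat shock chaperone promoters with a window and in 5.58% of all 8892 promoters of measured genes, and in 5.58% of the promoters of all genes called lower. The other 7 chaperones with the element were not called. The windows of Hspa1a and Hspa1b were identical at 296 of 300 positions.

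A platelet gene and a clustered protocadherin were also among the 15 lowest. Gp5, the platelet glycoprotein V, had 217 and 0 reads and was at least 97.4-fold lower at E18, with 150 and 16 reads in the wild type. Pcdhb8, a clustered protocadherin, had 194 and 0 reads and was at least 87.1-fold lower, while the wild-type libraries had 54 and 149. In all, 92 kept genes had 0 reads in the knockout E18 library and 28 had 0 in the knockout E15 library.

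**Figure D2:**
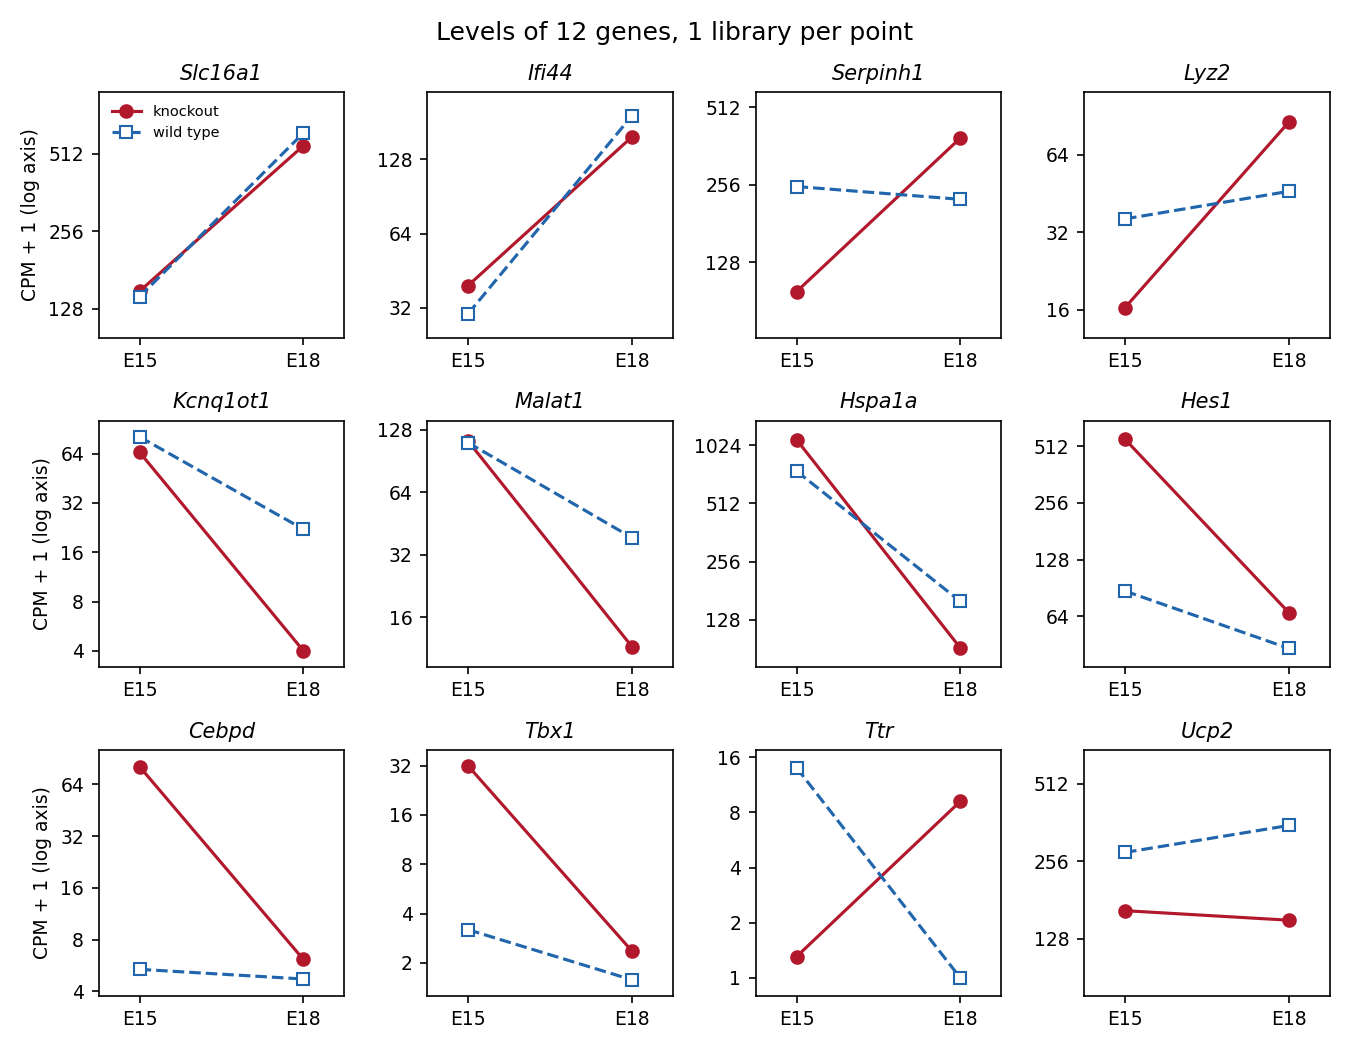
Level of 12 genes (CPM plus 1, log axis) at E15 and E18 in the knockout libraries (filled circles, solid line) and the wild-type libraries (open squares, dashed line), 1 library per point. Slc16a1 and Ifi44 were higher at E18 in both genotypes, Kcnq1ot1, Malat1 and Hspa1a were lower in both, Hes1, Cebpd and Tbx1 stood high in the knockout E15 library, and Ttr ran in opposite directions.

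Among the genes higher at E18, the ones that reached at least 50 CPM were led by Eno1b, Lyz2, Ifi44, Serpinh1 and Slc16a1. Slc16a1 (ENSMUSG00000032902, chromosome 3, 104638668 to 104658462, plus strand) encodes the monocarboxylate transporter MCT1, which moves lactate and ketone bodies across the barrier. It had 2434 and 12096 reads (149 and 550.0 CPM), a 3.69-fold difference in CPM (log2 1.88, interval 1.82 to 1.95), and a log2 ratio of 2.11 in the wild type. Serpinh1, the collagen chaperone Hsp47, had 1594 and 8546 reads (97.6 and 389 CPM, log2 1.98), whereas the wild-type libraries had 3908 and 4276 (251 and 224 CPM, log2 -0.16). The knockout E15 library was the lowest of the 4 for Serpinh1 and the knockout E18 library the highest. Lyz2, lysozyme of myeloid cells with a near-identical copy in Lyz1, had 250 and 1863 reads (log2 2.39) against 545 and 861 in the wild type.

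Eno1b had the highest ratio of all, with 25 and 1919 reads in the knockout and 2960 and 3398 in the wild type (log2 5.12 and -0.10). It is a near-identical copy of the enolase gene Eno1, and reads may be assigned to either, so its ratio is uncertain. Eno1 had 11769 and 13334 reads in the knockout libraries (log2 -0.25).

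Several of the other abundant genes were also higher in the wild type. Fgfbp1, a secreted carrier of fibroblast growth factors and a Wnt-responsive barrier gene, had 621 and 3003 reads (log2 1.82, wild type 1.34). Clic5, a chloride channel protein, had 422 and 1977 (log2 1.76, wild type 2.30). Lrrn3, a neuronal leucine-rich repeat protein, had 240 and 1152 (log2 1.77, wild type 1.72). Peg13, an imprinted RNA made from within Trappc9, had 234 and 1118 (log2 1.76, wild type 1.81). The endocytic adaptor Ap2a1 had 429 and 1910 (log2 1.69, wild type 0.82). All 5 were above 0 in both genotypes.

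Weakly read genes filled the rest of the 15 highest ratios. All of them but Casq2 were below 1 CPM in the knockout E15 library. They passed the filter through the E18 library alone and could not have been called lower. With 35 reads at E15, Casq2 could not either, because of the minimum of reads over both libraries. Tnfsf10, the interferon-inducible death ligand TRAIL, had 10 and 253 reads (wild type 38 and 480). Igfbp5, a binding protein of insulin-like growth factors, had 7 and 198 (wild type 20 and 126). Acsbg1, an acyl-CoA synthetase of astrocytes, had 0 and 141 and was at least 34.9-fold higher (wild type 5 and 122). AI593442 had 0 and 184 (at least 45.5-fold), Ifi208, of a family of near-identical interferon-inducible genes, 0 and 209 (at least 51.7-fold), and the ephrin receptor gene Epha5 0 and 140 (at least 34.6-fold). Pde1a had 0 and 132 reads (at least 32.7-fold), Dtna 0 and 120 (at least 29.7-fold) and Ttyh1, of neural progenitors, 0 and 119 (at least 29.5-fold). Casq2 had 35 and 412, the amino acid transporter gene Slc6a15 9 and 196, and Adcyap1r1, the receptor of the neuropeptide PACAP, 7 and 176. Ifi208, Epha5, Slc6a15 and Ttyh1 had wild-type log2 ratios between -0.32 and 0.44. Ttr, the transthyretin of the choroid plexus, had 5 and 180 reads in the knockout and 202 and 0 in the wild type, and Tmc5 had 0 and 163 against 66 and 0 in the wild type. Both ran in opposite directions in the genotypes.

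Endothelial identity genes were centred near the median of all genes. Of 30 members, 1 was higher and 4 were lower, with a median of -0.02 that became 0.10 with TMM scaling. Cdh5, the cadherin of endothelial junctions, had 3136 and 8506 reads (log2 1.01, interval 0.95 to 1.07). Flt1, the decoy receptor VEGFR1, had 47988 and 28958 (log2 -1.16), Lmo2 3109 and 1319 (log2 -1.65), Tal1 288 and 97 (log2 -1.78) and Rasip1, a regulator of vessel lumen formation, 653 and 167 (log2 -2.25). Lmo2 and Tal1 are partners in a transcriptional complex of endothelial and blood cells. In the wild type these 4 had log2 ratios of -0.38, -0.85, -0.04 and -0.75, with no call.

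Genes of late and adult brain endothelium were shifted upward. Of 23 measured members 19 were above 0, 6 were higher, 0 lower, and the median was 0.44. Car4, a carbonic anhydrase of brain capillaries, had 573 and 2095 reads (log2 1.42, wild type 1.68). Ly6c1 had 2655 and 8873 (log2 1.31, wild type 1.68), Spock2, a matrix proteoglycan, 19030 and 61354 (log2 1.26, wild type 0.55), and Hmcn1, hemicentin, 267 and 834 (log2 1.17, wild type 0.54). The chemokine Cxcl12 had 6040 and 17418 (log2 1.10, wild type 1.34) and Ly6e 4557 and 12355 (log2 1.01, wild type 0.98). All 6 were above 0 in the wild type too, where 8 of 23 members were higher. The most read member, Bsg, the chaperone basigin that accompanies monocarboxylate transporters, had 143900 and 259382 reads (log2 0.42). Of 9 Ly6 family genes 2 were higher (Ly6c1 and Ly6e) and 5 with TMM scaling, and several of them are near-identical copies.

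Barrier transporters showed 2 higher and 1 lower of 23, with a median of 0.30. Beside Slc16a1, the organic anion transporter gene Slco1a4 was higher, with 74 and 633 reads (log2 2.43, wild type 1.94). Slc29a4, a monoamine transporter, was the lower one (326 and 199 reads, log2 -1.06), a call that ends with TMM scaling (log2 -0.96), where the list has 0 lower. Slc2a1, the glucose transporter GLUT1 and the most read member, had 179070 and 181930 reads (log2 -0.41), and the alanine and serine transporter Slc1a4 45370 and 64456 (log2 0.08). The thyroid hormone carrier Slco1c1 had 25047 and 58069 reads (log2 0.78, wild type 1.06). None of 10 ABC efflux transporters was called, and their ratios lay between -0.73 and 0.56.

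Junction and vesicle genes were mixed. Of 21 junction genes 1 was higher (Cdh5) and 2 were lower, namely Ctnnb1, beta-catenin, with 9072 and 5049 reads (log2 -1.27, wild type -0.70), and the scaffold gene Magi1 with 684 and 386 (log2 -1.21, wild type -1.14). Plvap, the diaphragm protein of fenestrated capillaries that disappears as the barrier matures, had 1714 and 814 reads in the knockout (log2 -1.48, interval -1.63 to -1.38) and 2829 and 191 in the wild type (log2 -4.05). The knockout E18 library held more Plvap reads than the wild-type E18 library and fewer than either E15 library. Mfsd2a, the lipid transporter that suppresses transcytosis, had 28961 and 46624 reads (log2 0.26) and Cav1 9526 and 14505 (log2 0.18). The membrane-bending gene Pacsin2 was lower (log2 -1.33) and Pacsin3 higher, with 12 and 88 reads.

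Signalling pathways of the vessel wall had medians near that of all genes (0.01 for Wnt, 0.06 for VEGF, 0.05 for TGF-beta and BMP, -0.19 for Notch), and their calls fell on a few members. Of 26 Wnt genes 4 were lower and 2 higher. Foxq1, a forkhead factor of brain endothelium, had 1534 and 388 reads (log2 -2.35, wild type -0.65), and Nkd1, a feedback inhibitor induced by Wnt, 13405 and 5408 (log2 -1.74, wild type -1.49). Reck, the Wnt7 co-receptor, had 378 and 198 (log2 -1.27, wild type -1.27). Dkk2 was higher with 227 and 681 reads (log2 1.10, wild type -0.54). The highest member of the Notch list was Lfng, a glycosyltransferase that modifies Notch, with 140 and 628 reads (log2 1.63), followed by Notch3, a receptor of mural cells, with 744 and 2905 (log2 1.52), and by the ligand gene Dll3 with 10 and 65. Hes1, above, and Nrarp, with 62 and 28 reads, were the lower ones of 26.

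Of the VEGF list Flt1 was called and the other 8 were not. The receptor Kdr had 39497 and 63205 reads (log2 0.25). Cxcr4, the receptor of Cxcl12 on tip cells, had 216 and 838 reads (log2 1.46, wild type 0.88), and Angptl2 92 and 378 (log2 1.45, wild type 0.92). In the TGF-beta and BMP list 4 of 33 were lower and 2 higher. Atoh8, a BMP target, had 78 and 288 reads (log2 1.29). Socs3, the feedback inhibitor of STAT3 signalling, was higher with 1278 and 4408 reads (log2 1.35, wild type 0.75), and Stat5a was lower with 237 and 83 (log2 -1.70). The flow sensor gene Piezo1 had 575 and 285 reads (log2 -1.38, wild type -0.76). Spry4, a feedback inhibitor of ERK signalling, had 620 and 1945 (log2 1.20) and the ERK phosphatase gene Dusp5 98 and 15 (log2 -2.06).

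The insulin-like growth factor axis held 5 lower and 2 higher genes of 17, with a median of -0.71 (-0.21 over the 14 members that reached 5 CPM). The ligand gene Igf2 had 2543 and 8036 reads in the knockout (log2 1.23, interval 1.17 to 1.30) and 4072 and 5354 in the wild type (log2 0.10). The other higher gene, and the highest of the list, was the binding protein gene Igfbp5 (log2 2.81). It passed the filter through the E18 library alone and could not have been called lower. The binding protein genes thus went both ways, with Igfbp4 not called (log2 0.06) and Igfbp2, Igfbp3 and Igfbp7 lower. Igfbp2 had 1562 and 500 reads (log2 -2.03, wild type -2.72), Igfbp3 5829 and 3310 (log2 -1.24, wild type -0.19) and Igfbp7 7442 and 4259 (log2 -1.23, wild type -0.10). The RNA-binding protein gene Igf2bp2 had 137 and 37 reads (log2 -1.81) and the receptor substrate gene Irs2 57 and 16 (log2 -1.38). The receptor Igf1r was not called (log2 0.07).

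**Figure D3:**
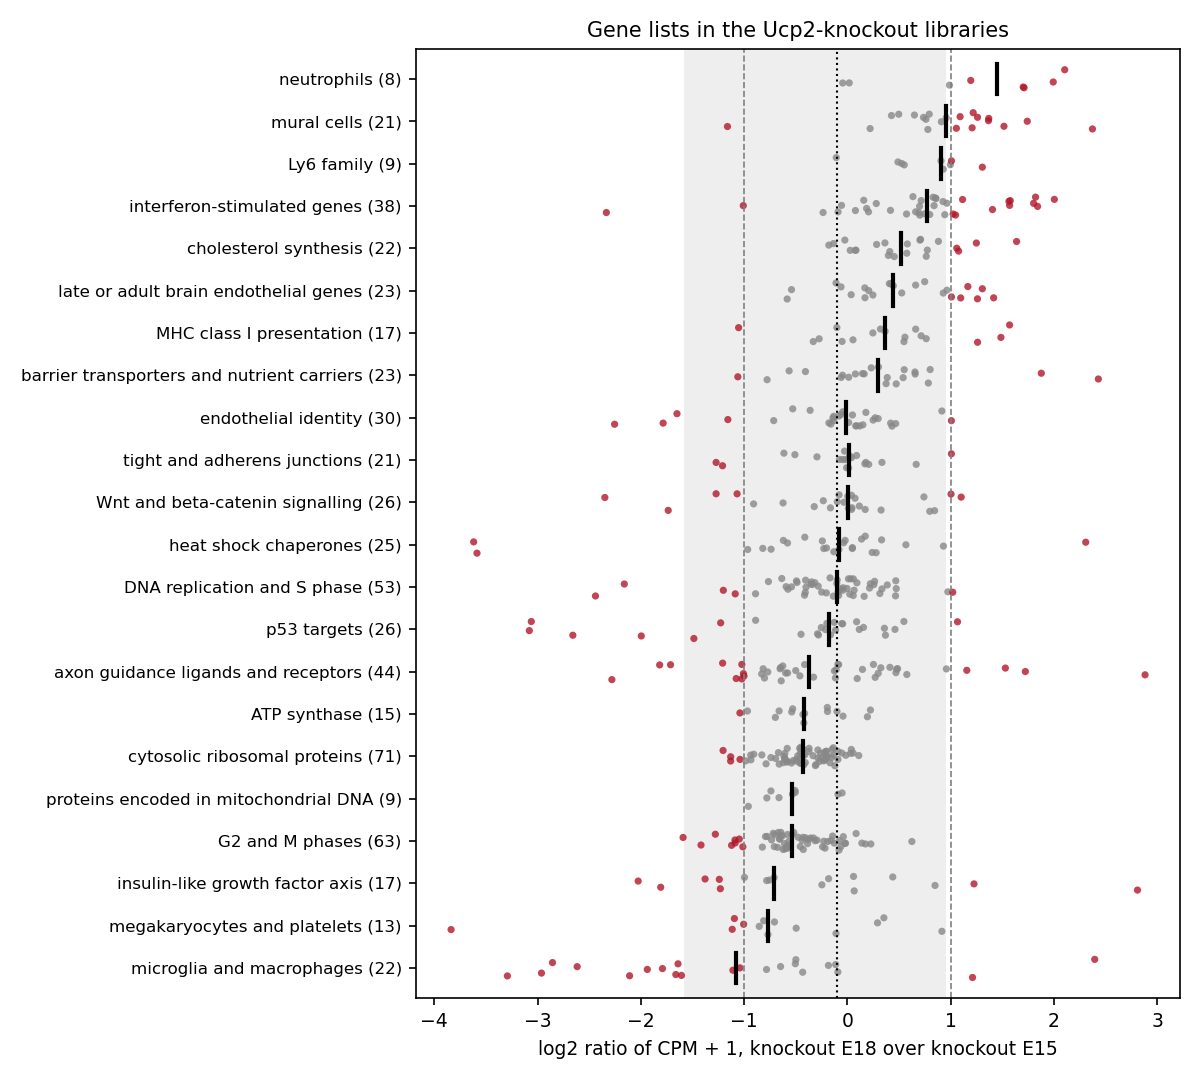
Knockout stage ratio (log2 of CPM plus 1, E18 over E15, horizontal axis) of every measured member of 22 gene lists, 1 point per gene, red where called at 2-fold, with a black bar at each list's median, a dotted line at the median of all genes (-0.10) and a grey band from the 5th to the 95th percentile of all genes (-1.57 to 0.94). The bar of mural genes stands at 0.96 and that of microglial genes at -1.07, and the bar of neutrophil genes rests on 8 points, some of which passed the filter through the E18 library alone.

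Interferon-stimulated genes were higher at E18 as a group. Of 38 measured members 33 were above 0, 11 were higher (28.9%, against 4.35% of all genes), 2 were lower, and the median was 0.77. Ifi44 had 627 and 3451 reads (log2 2.00, interval 1.91 to 2.16), Usp18, which removes Isg15 from proteins and restrains interferon signalling, 123 and 641 (log2 1.82), and Rsad2, the antiviral enzyme viperin, 219 and 923 (log2 1.58). Ifit1, a sensor of viral RNA caps, had 45 and 266 (log2 1.80), Oasl2 459 and 1870 (log2 1.56), Oasl1 27 and 187 (log2 1.84) and Rtp4 567 and 2057 (log2 1.40). The wild-type libraries had 82 and 1267 reads of Rsad2 (log2 3.43), 36 and 506 of Ifit1 (log2 3.05) and 420 and 3028 of Rtp4 (log2 2.51), and 24 of 38 members were higher there. The summed CPM of the measured members was 1219 and 2169 in the knockout against 1144 and 2763 in the wild type.

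The other called members were Tap1, Ifih1, Xaf1 and Gbp3 on the higher side, with log2 ratios of 1.57, 1.11, 1.05 and 1.02, and Iigp1 and Gbp4 on the lower side. The GTPase gene Iigp1 had 66 and 0 reads against 32 and 60 in the wild type. Gbp4, another GTPase gene, had 136 and 80 against 45 and 150, and its call ends with TMM scaling (log2 -0.91). Of 17 genes of MHC class I presentation 3 were higher and 1 lower (median 0.36). Beside Tap1, the peptide transporter, H2-T23 had 301 and 1175 reads (log2 1.49, wild type 1.70) and Nlrc5, the transactivator of these genes, 6 and 50. Nlrc5 passed the filter through the E18 library alone and so could not have been called lower.

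The interferon-stimulated response element, the site bound by interferon regulatory factors and the ISGF3 complex, was searched as GAAANNGAAA on either strand in the same promoter windows. It was found in 17 of 29 interferon-stimulated promoters with a window, against 3.03% of all 8892. Among the list's 9 higher genes with a window 4 held it, a smaller share than in the whole list (58.6%). The list's other matches lay in members that were not called, so within the list the element did not mark the higher genes. Among all higher genes 21 of 373 (5.63%) held it, these 4 included, against 26 of 878 lower genes (2.96%). The 4 stretches show the element in capitals in the genes that were higher (GRCm38.p6, gene strand, 5′ to 3′, 60 bases each, 1 match per gene).
Ifit1, chr19:34640779-34640838, plus strand: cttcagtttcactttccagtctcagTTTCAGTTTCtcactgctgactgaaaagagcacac
Rsad2, chr12:26456538-26456597, minus strand: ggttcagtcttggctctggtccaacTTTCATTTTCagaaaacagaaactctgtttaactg
Gbp3, chr3:142559974-142560033, plus strand: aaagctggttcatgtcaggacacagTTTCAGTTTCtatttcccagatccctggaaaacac
Ifih1, chr2:62646206-62646265, minus strand: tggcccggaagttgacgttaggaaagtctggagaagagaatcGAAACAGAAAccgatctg
The match began 85 bases before the start in Ifit1, 120 before it in Rsad2 and 45 before it in Gbp3, and after the start in Ifih1. In Ifit1, Rsad2 and Gbp3 the letters stand on the strand opposite to the gene. A match describes these letters in this window and is not a measured binding site.

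Most genes of the G2 and M phases had ratios below 0, but few reached 2-fold. Of 63 members 58 were below 0 and the median was -0.54, while 8 were called lower (12.7%, near the 11.0% of all genes) and 0 higher. With TMM scaling 4 were lower and the median was -0.43. The kinetochore gene Cenpf had 657 and 279 reads (log2 -1.59, wild type -0.68), the mitotic kinesin genes Kif20b 904 and 442 (log2 -1.42) and Cenpe 1092 and 664 (log2 -1.12), and the cyclin gene Ccnb2 135 and 62 (log2 -1.28). In the wild type 21 of 63 were lower. The 53 genes of DNA replication had a median of -0.10, equal to that of all genes, with 4 lower (7.55%) and 1 higher. Orc1, of the origin recognition complex, had 185 and 28 reads (log2 -2.44), the chromatin assembly gene Chaf1a 488 and 130 (log2 -2.16), and the transcription factor gene E2f1 54 and 170 (log2 1.02, wild type -0.73).

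The CCAAT box, an element of many G2 and M promoters bound by NF-Y, was found in 38 of 51 promoters of that list with a window (74.5%) and in 38.7% of all 8892, searched as CCAAT on either strand. It was present in 5 of the 7 lower members with a window, and in 37.6% of all lower and 36.7% of all higher genes. Ccnb2 and Cenpf are shown as lower members with more than 1 box, with 1 box each (capitals, GRCm38.p6, gene strand, 5′ to 3′, 60 bases each).
Ccnb2, chr9:70421577-70421636, minus strand: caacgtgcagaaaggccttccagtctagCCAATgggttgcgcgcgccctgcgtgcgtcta
Cenpf, chr1:189688126-189688185, minus strand: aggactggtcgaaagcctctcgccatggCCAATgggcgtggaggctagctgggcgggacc

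Genes of cycle arrest and of the p53 response went both ways. Cdkn1a, the inhibitor p21, had 3639 and 10281 reads (log2 1.07, wild type 1.12) and was the higher one of 26 p53 targets. The 6 lower ones were Plk3, Ppm1d, Phlda3, Gadd45a, Bbc3 and Aen. The phosphatase gene Ppm1d had 665 and 88 reads in the knockout and 92 and 68 in the wild type, and Phlda3, an inhibitor of AKT, had 143 and 12 against 19 and 10. The stress gene Gadd45a had 185 and 46 against 61 and 44, and the BH3-only gene Bbc3 225 and 94 against 112 and 94. Plk3, Ppm1d, Phlda3, Gadd45a and Bbc3 were highest in the knockout E15 library, and Aen in the wild-type E15 library. The cell cycle inhibitor gene Cdkn2c was lower with 89 and 38 reads, and so was the retinoblastoma gene Rb1 with 152 and 68.

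Most cholesterol genes had ratios above 0, and few reached 2-fold. Of 22 measured members 19 were above 0, 4 were higher and 0 lower, with a median of 0.51, and in the wild type 0 of 21 were higher (median 0.17). Insig1, which holds the sterol sensor in the endoplasmic reticulum, had 556 and 2376 reads (log2 1.64, wild type 0.74). Sc5d, a desaturase of the pathway, had 730 and 2071 (log2 1.06, wild type 0.44). The sterol regulatory element, searched as TCACNCCAC on either strand, was found in 1 of 15 promoters of the list with a window, in 0 of the 2 higher members with one, and in 1.08% of all 8892. A promoter with no match only lacks these letters in its window. The regulator Srebf2 had 1920 and 4435 reads (log2 0.77).

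Genes of the mitochondrial DNA and of the cytosolic ribosome had ratios below 0, mostly without a call. All 9 measured protein genes of the mitochondrial DNA were below 0 (median -0.53, -0.42 with TMM scaling) and none was called. mt-Co1, a subunit of cytochrome oxidase, had 66423 and 53531 reads (log2 -0.74, wild type -0.80) and mt-Cytb 46390 and 43941 (log2 -0.51). No gene was called among 34 of complex I (median -0.19) and 25 of complexes II to IV (median -0.14). Atpif1, the inhibitor of ATP synthase, was lower with 167 and 98 reads (log2 -1.04, and -0.94 with TMM scaling, no longer called). Of 71 cytosolic ribosomal protein genes 67 were below 0, 4 were lower and the median was -0.43. In the wild type their median was -0.17. Many ribosomal genes have processed pseudogenes, so their reads may be shared.

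Among 35 mitochondrial carriers 3 were lower and 2 higher. Mtch2, a carrier homologue of the outer membrane, had 238 and 45 reads (log2 -2.35, wild type -0.19), the folate carrier gene Slc25a32 64 and 7, and the ornithine carrier gene Slc25a15 292 and 124 (log2 -1.51). The higher ones were Slc25a29, with 120 and 386 reads, and Slc25a27, with 37 and 154. In fuel use, Acsl3, an acyl-CoA synthetase, had 1114 and 303 reads (log2 -2.23, wild type -1.55) and Pdk4, the kinase that shuts off pyruvate dehydrogenase, 409 and 222 (log2 -1.23, wild type -1.45). Glycolysis had no lower gene among 20. Pkm and Ldha had log2 ratios of 0.22 and 0.13, and the higher ones were Eno1b, described above as uncertain, and Aldoc, the aldolase of astrocytes, with 11 and 155 reads.

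Redox and stress genes were divided. Of 35 antioxidant genes 4 were lower and 2 higher. Gclm, the modifier subunit of glutathione synthesis, had 1169 and 325 reads (log2 -2.20, interval -2.46 to -2.10) and 217 and 165 in the wild type, so it too was highest in the knockout E15 library. Txnrd1, thioredoxin reductase, had 1142 and 616 (log2 -1.29, wild type -0.90). Sod3, the extracellular superoxide dismutase, had 1211 and 4921 (log2 1.58, wild type 0.80) and Gstm1 1160 and 3227 (log2 1.04, wild type 1.25). Eif2ak3, the stress kinase PERK, was lower with 227 and 48 reads (log2 -2.23, wild type -0.09). Bnip3, a hypoxia-induced mitophagy receptor, was the one called gene of 22 hypoxia genes, with 608 and 1797 reads (log2 1.11, wild type 1.37).

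Immediate early genes, which also respond to the dissociation of tissue, had a median of 0.30 over 34, with 2 higher and 3 lower (8.82%, against 11.0% of all genes). Egr1 had 11968 and 34696 reads (log2 1.10, wild type 1.69), Fos 37359 and 79624 (log2 0.66, wild type 1.26) and Jun 57973 and 86169 (log2 0.14). The nuclear receptor genes Nr4a2, with 1737 and 671 reads, and Nr4a3, with 66 and 4, were lower. Egr2 was lower too (log2 -1.12), a call that ends with a pseudocount of 5 CPM (log2 -0.91). The time from dissection to lysis, which the sources used here do not give, was not tested for its part in these ratios.

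Matrix and secreted genes had a few large ratios. Beside Serpinh1, the basement membrane list held Lama1 with 216 and 710 reads (log2 1.23, wild type 1.42) and Lama2 with 58 and 205 (log2 1.18) among the higher, and Itgb1, the beta 1 integrin, with 23495 and 15805 (1439 and 719 CPM) among the lower, at the edge of the call and past it no longer with TMM scaling (log2 -0.89). Col4a1, its abundant collagen, had 43717 and 91685 reads (log2 0.64). Among 36 secreted factors 5 were higher, including Ptn, pleiotrophin, with 1767 and 4869 reads (log2 1.03), and 3 lower, including the guidance ligand gene Slit2 with 225 and 138 (log2 -1.02, and -0.92 with TMM scaling, no longer called). In the axon guidance list 9 of 44 were lower and 4 higher, and with TMM scaling 4 were lower and 5 higher. The receptor gene Epha3 had 171 and 55 reads (log2 -1.71) and Epha1 125 and 32 (log2 -1.82).

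Genes of fetal and imprinted programmes were also mixed. Marcksl1, an actin-linked protein of growing cells, had 12327 and 3864 reads (log2 -2.10, interval -2.16 to -2.05, wild type -1.69), and Lin28b, an inhibitor of let-7, 115 and 45 (log2 -1.40). Of 33 imprinted genes 5 were higher and 4 lower. The higher ones were Igf2, Peg13, Dlk1, Dcn and Nap1l5, and the lower ones Kcnq1ot1, Slc38a4, Ppp1r9a and Ube3a. Dcn passed the filter through the E18 library alone. Of 37 clustered protocadherins 9 were lower and 3 higher, and Pcdhb6 and Pcdhb9 were higher in the knockout but lower in the wild type. Pcdhb6 passed the filter through the knockout E18 library alone and so could not have been called lower there.

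Markers of other cell types moved between the libraries. In bulk samples fewer cells of a type and less RNA per cell cannot be told apart. Mural cell genes were higher, with 10 of 21 called (47.6%, against 4.35% of all genes), 20 above 0, 1 lower and a median of 0.96. The pericyte gene Rgs5 had 55530 and 192751 reads (log2 1.37, interval 1.35 to 1.38), and 79709 and 131818 in the wild type (log2 0.43). Pdgfrb, the receptor that recruits pericytes, had 3339 and 9364 (log2 1.05, wild type 0.12), Vtn 6505 and 18683 (log2 1.09, wild type 0.37) and Anpep 96 and 761 (log2 2.37, wild type 1.57). Summed over the measured members, CPM was 5725 and 13007 in the knockout and 8525 and 10663 in the wild type, so the knockout libraries lay outside the wild-type range on both sides. Acta2, smooth muscle actin, was the lower one, with 75 and 33 reads. Notch3, of the Notch list, and Foxs1, a forkhead gene with 531 and 1692 reads, are also mural genes, and the part of mural cells in the ratios of matrix and Notch genes was not tested.

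Microglial and macrophage genes were lower. Of 22 members 12 were lower (54.5%, against 11.0% of all genes), 2 higher and the median was -1.07. The homeostatic microglial receptor gene Cx3cr1 had 377 and 46 reads against 1416 and 24 in the wild type, and P2ry12 had 408 and 57 against 1417 and 10. Csf1r, the survival receptor of these cells, had 1049 and 212 reads (log2 -2.62, wild type -3.59), and the complement gene C1qc had 449 and 42 (log2 -3.29, wild type -2.93). Tmem119 had 400 and 108 reads in the knockout and 587 and 0 in the wild type. The defining genes were thus at lower levels in the E18 than the E15 library of each genotype, and at 0 for Tmem119 in the wild-type E18 library. Summed over the measured members, CPM was 873 and 646 in the knockout and 1286 and 662 in the wild type. The higher members were Lyz2 and Mrc1, the mannose receptor of border macrophages, with 52 and 191 reads. The chemokine genes Ccl3, with 427 and 74 reads, and Ccl2, with 128 and 36, which microglia also make, were lower in the inflammatory list, and the part of microglia in these ratios was not tested.

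Blood cell genes differed in both directions. Of 22 neutrophil genes 8 passed the filter, S100a8 and S100a9 through the E18 library alone, and 5 were higher. The calprotectin genes S100a8 and S100a9 went from 7 reads each at E15 to 113 and 103 at E18. Ltf, lactoferrin, had 69 and 354 reads, Mmp8 17 and 124 and Ngp 83 and 284. S100a8 and S100a9 could not have been called lower. With 17 reads at E15, Mmp8 could not either, because of the minimum of reads over both libraries. The summed CPM of the measured members was 401 and 439.6 in the knockout, and 661 and 312 in the wild type. Mmp9 and Csf3r, which endothelial or other cells can also carry, were not called (log2 0.02 and -0.05). Platelet genes were lower for 4 of 13, with Gp5 and Itga2b among them (307 and 195 reads for Itga2b, whose log2 ratio is -0.90 and uncalled with TMM scaling), while Vwf, made by endothelium too, had 6652 and 16903 (log2 0.91). Of 6 mast cell genes Hpgds was lower (148 and 33 reads), Hdc, Gata2, Slc18a2 and Kit had log2 ratios from -0.94 to -0.26, and Cpa3 had 0.64. The adult globin genes Hba-a1, Hbb-bs, Hbb-bt and Hba-a2 were not called, with log2 ratios of 0.52, 0.23, -0.67 and -0.52, and pairs of them are near-identical copies. Slc4a1, the anion exchanger of red cells, was higher with 70 and 493 reads (log2 2.15, wild type 1.05). Cd79b and Cd247, the measured lymphocyte genes, had log2 ratios of -0.41 and 0.68.

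Some astrocyte genes were higher, and neuronal genes were mixed. Of 25 astrocyte genes 16 passed the filter, 5 were higher and 0 lower (median 0.21). Acsbg1, Mlc1 and Aldoc, which are 3 of these 5, passed through the E18 library alone and so could not have been called lower. Aldh1l1 had 33 reads at E15, and the minimum of reads over both libraries barred a lower call for it too. The measured members summed to 8669 CPM at E15 and 10069 at E18, and to 7951 and 10697 in the wild type. Acsbg1, Mlc1, Aldoc and Aldh1l1 make up little of this sum, so it is not read as astrocyte content. Of the other members, Sparcl1, Id3 and Apoe had log2 ratios of 0.24, 0.16 and -0.11 and were not called. Mlc1, a membrane protein of astrocyte endfeet, had 10 and 170 reads (wild type 78 and 220) and Aldh1l1 33 and 132 (wild type 30 and 223). Among radial glia genes Fabp7 had 78 and 396 reads (log2 1.72, wild type 1.44) and Ptprz1 36 and 216 (log2 1.76, wild type 1.98). Lhx2, a cortical progenitor factor, had 73 and 0 reads in the knockout and 3 and 47 in the wild type. In the knockout Lhx2 passed the filter through the E15 library alone and could not have been called higher. Of 37 neuronal genes 13 passed the filter, 4 were lower and 2 higher, and Rbfox3, the nuclear antigen NeuN, had 149 and 84 reads (log2 -1.07, wild type -2.02, and -0.97 and uncalled with TMM scaling). The measured neuronal genes summed to 76.8 CPM at E15 and 61.6 at E18. Of 18 choroid plexus and ependymal genes 6 passed the filter, and their summed CPM was 248 and 223 in the knockout and 199 and 174 in the wild type. Ttr and the water channel gene Aqp1 (0 and 73 reads) were higher, and both passed the filter through the E18 library alone. Rarres2, Clic6, Enpp2 and Prlr were not called, with log2 ratios of 0.81, -0.23, -0.24 and -0.81. Of 13 fibroblast genes 3 were higher (Igf2, Dcn and Col6a3, 23.1% against 4.35% of all genes) and 0 lower. Dcn passed the filter through the E18 library alone and so could not have been called lower.

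The knockout and wild-type stage ratios share no library and can be set side by side. Over 11593 genes measured in both pairs Pearson's r was 0.46 and Spearman's rho 0.43 across genes, as a description, since genes are not independent replicates and the E15 libraries share a deposited table, as do the E18 libraries. The wild-type pair had 343 higher and 794 lower genes among them and the knockout pair 463 and 1238. Over its own 12088 measured genes the wild type had 3.09% higher and 7.59% lower, with a median of -0.11. Higher in both were 115 genes, 24.8% of the knockout's higher genes and 33.5% of the wild type's. Lower in both were 366, 29.6% of the knockout's and 46.1% of the wild type's lower genes. Calls in opposite directions were made for 33 genes higher in the knockout and 13 lower in the knockout. With 1 library per group the difference between the genotypes' stage ratios cannot be tested.

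**Figure D4:**
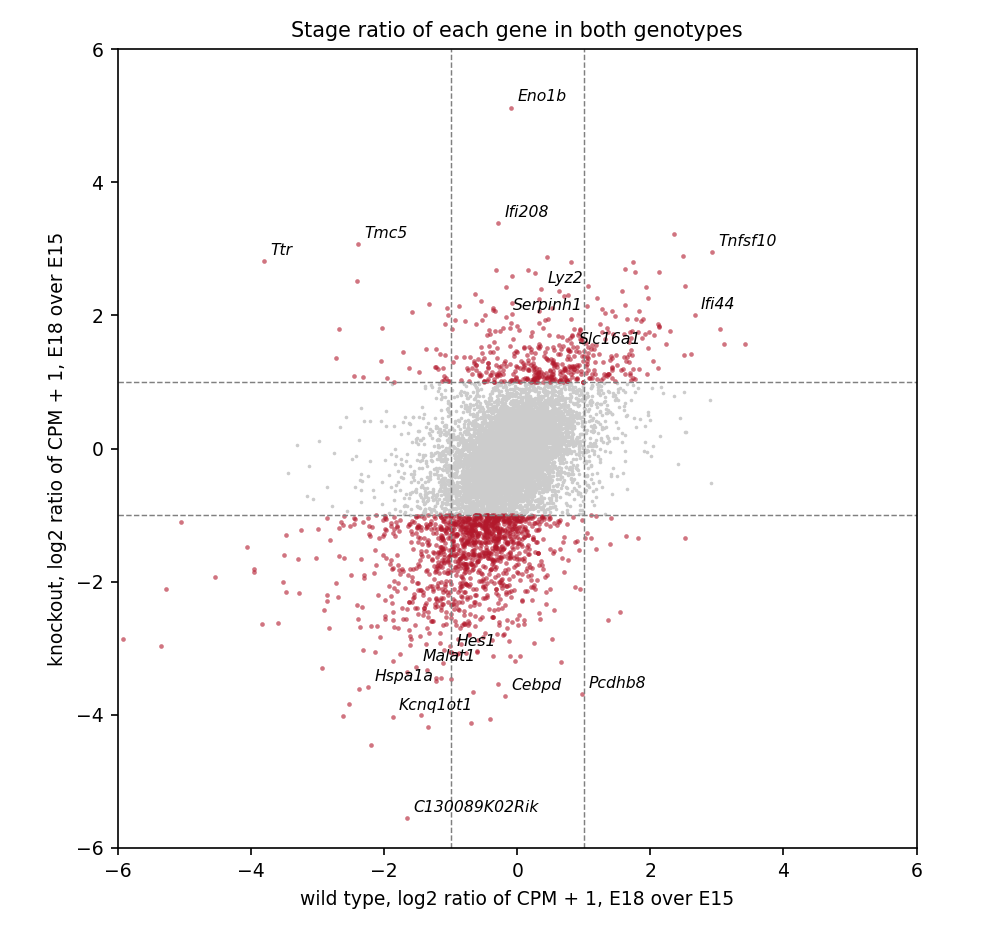
Stage ratio of each gene measured in both genotypes (log2 of CPM plus 1, E18 over E15) in the knockout (vertical axis) against the wild type (horizontal axis), 1 point per gene, red where called at 2-fold in the knockout, with dashed lines at 2-fold. Ifi44, Slc16a1 and Tnfsf10 lie at the upper right, Kcnq1ot1, Malat1 and Hspa1a at the lower left, and Ttr and Tmc5 at the upper left.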

How the data were processed

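RNA from brain endothelial cells of 4 samples was extracted with Trizol and sequenced as 1 library each, per the labels' protocols. The series' design text speaks of triplicates, and further libraries are not analysed here. The authors deposited a table per stage holding raw read counts per Ensembl gene for a knockout and a wild-type library, per the file headers. Per the submitters' processing notes the tools were HTSeq 0.6.0, TopHat2 2.0.12 and Bowtie2 2.2.3, with no role stated, and the build mm9. However, 18140 of 20143 gene identifiers (90.1%) had the same chromosome, start and end as in GENCODE M21 (GRCm38), so positions are read as GRCm38. The sources used here do not state by what rule a gene was listed in a table.

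The tables were joined on the gene identifier, and counts were divided by the library total over all listed genes. Ratios, Clopper-Pearson intervals and floors of 3 reads were computed with Python 3.11.15, numpy 2.4.6, pandas 2.3.3 and scipy 1.17.1, and the ratio step was tested on simulated data. No count model was fitted, since each group has 1 library and so no replicate spread. Reads were counted without molecular identifiers, so the intervals cover counting error only. Genes were named by rule: the 15 highest and 15 lowest ratios, the 10 highest and 10 lowest among genes with at least 50 CPM in 1 knockout library, Ucp2, and of each list described the 2 most read members, the 2 with the largest absolute ratio and called members counted in the text. Eno1 and Xist stand outside this rule and were read as checks. Gm38111, given as an example, and the genes listed at a single stage stand outside it too. The members and the 69 lists were chosen with earlier results of these data known, so they are no independent evidence. Promoter windows came from RefSeq (GRCm38.p6) and were matched by symbol for 8892 of 12048 genes (73.8%). Alternatives were another pseudocount, filter, scaling, centring by gene length, X and Y kept, and calls by the counting interval. Some genes that the rule would name are not reported here.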

Additional observations from a re-analysis of the deposited data

Results flagged for a closer look

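For 7 named genes the knockout and wild-type libraries moved past 2-fold in opposite directions between E15 and E18. Each direction rests on 1 library per group and the difference was not tested. In the knockout, Ttr, Aqp1, Tmc5 and Pcdhb6 passed the filter through the E18 library alone and could not have been called lower. Lhx2 passed it through the E15 library alone and could not have been called higher. Ttr, a choroid plexus gene, had a log2 ratio of 2.81 in the knockout and -3.81 in the wild type, and Aqp1, the water channel of the same epithelium, 2.11 and -1.06. Aqp1 had 0 and 73 reads in the knockout and 61 and 26 in the wild-type libraries. The other measured choroid plexus genes were not called in the knockout, with log2 ratios of 0.81 for Rarres2, -0.23 for Clic6, -0.24 for Enpp2 and -0.81 for Prlr. Tmc5 had ratios of 3.07 and -2.39. The progenitor gene Lhx2 had -2.45 and 1.54, and the GTPase gene Gbp4 -1.01 and 1.19. The protocadherin genes Pcdhb6 and Pcdhb9 had 2.05 and -1.58, and 1.01 and -1.04. Of the 7, 5 lose the knockout call with a pseudocount of 5 CPM, where Lhx2 has -0.92, Aqp1 0.73, Pcdhb6 0.70, Pcdhb9 0.71 and Gbp4 -0.63. Gbp4 also loses it with TMM scaling (-0.91), median-of-ratios scaling (-0.90) and centring by gene length (-0.89).

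Genes listed in a single table took no part in the comparison. At E15, 320 genes with at least 1 CPM in the knockout library were listed at that stage alone, among them Wdr95 with 113 reads, the hexokinase gene Hk3 with 99, the fructose transporter gene Slc2a5 with 95 and Siglech with 89. Hk3, Slc2a5 and Siglech are genes of myeloid cells and microglia. At E18 there were 121, among them Olig1, a factor of the oligodendrocyte lineage, with 218 reads in the knockout and 351 in the wild type, and the mast cell tryptase gene Tpsb2 with 106 and 0. All 2850 genes listed at E15 alone and all 1163 listed at E18 alone, at any level, held 0.128% and 0.0404% of the knockout reads of their stage.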

How the results depend on the processing

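With a pseudocount of 5 CPM in place of 1 the counts fell to 173 higher and 584 lower genes, since that setting shrinks the ratios of weakly read genes, and 122 of 279 called genes named by the rule lost their call, among them Cdh5 and Ly6e at the edge of it and weakly read genes such as Iigp1, Nr4a3, Dusp5, Epha1, Ccl2, Irs2, Rb1, Ccnb2, Dll3, Pacsin3, Mmp8, S100a8 and S100a9. Under the other 8 alternatives the counts stayed within 1.5 times 524 and 1329, from 373 to 666 higher and from 1015 to 1793 lower. TMM scaling ended 33 named calls, median-of-ratios scaling 36 and centring by gene length 37, the last including Flt1 (-0.90) and Magi1 (-0.95). No named call changed sign under the alternatives run. Across genes, Pearson's r of the knockout and wild-type ratios was 0.51 with a pseudocount of 5 CPM, 0.53 with at least 5 CPM in 1 library and 0.36 with no filter, settings chosen after seeing the data. Of 544 list medians recomputed 34 moved relative to the median of all genes under the same setting, in 18 lists. A shift shared by all genes, as with TMM scaling, was not counted as a move. Leaving out a replicate was not run, since each group has 1 library. No paired analysis was possible because each group has 1 library and the library numbers pair none of them. Genes with 50 to 60 reads had counting intervals of 0.879 log2 units to either side, so at this depth a 2-fold difference in them is poorly resolved.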

Other observations

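Genes of RNA processing, protein folding and the clock gave further calls in the knockout libraries. Of 62 splicing genes 6 were lower and 1 higher, with a median of -0.21. Luc7l, a U1-associated factor, had 1586 and 702 reads (log2 -1.58, wild type -0.41), Hnrnpu, a nuclear matrix protein, 1028 and 513 (log2 -1.39, wild type -0.99) and Srrm2, a scaffold of nuclear speckles, 3635 and 2169 (log2 -1.17, wild type -0.53). Of 19 clock genes 2 were higher and 2 lower. Nr1d1, the repressor REV-ERB alpha, had 281 and 1018 reads (log2 1.38, wild type 1.65) and Hlf 29 and 233 (log2 2.06, wild type -0.33). The sources used here do not give the hour at which embryos were taken, and its part in these ratios was not tested. In the unfolded protein response list Edem1, which targets misfolded glycoproteins for degradation, was lower with 367 and 156 reads (log2 -1.54, wild type -1.12), and no member was higher.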
